A study of Mus musculus with 2 samples.

Results

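The complement system was followed here through 9 genes: the C1q chain genes C1qa, C1qb and C1qc, the component genes C3 and C4b, the alternative pathway genes Cfb and Cfp, and the anaphylatoxin receptor genes C3ar1 and C5ar1. They were chosen by name, and their probes were found by the RefSeq accession that the scanner file gives for each spot. All 9 genes had at least 1 probe with a usable spot on both arrays, and C3 had 2, so 10 probes were read, out of 39386 probes and 20642 named genes in all. All 9 passed the filter on dim probes, C1qa through the WT array alone.

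The tested RNA came from splenic red pulp macrophages of SIRPα-KO mice, and the comparison RNA from the same cells of WT mice. SIRPα is an inhibitory receptor of myeloid cells whose ligand is CD47. Macrophages of 5 mice per genotype, sorted as F4/80+ and CD11b-low, made up 1 sample, so each genotype is represented by 1 pool and 1 array. The sources used here give neither the kind of knockout allele nor the strain, sex and age of the mice. RNA of both genotypes was depleted of α- and β-globin transcripts, and no treatment of the mice is given. In pooled cells, fewer cells of a type and less RNA per cell cannot be told apart.

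Complement is a cascade of plasma proteins that marks particles for uptake. C1q, built from A, B and C chains, opens the classical pathway when it binds antibody or the surface of dying cells. C4 and then C3 are cleaved next and deposit on the target, while factor B and properdin drive the alternative pathway that amplifies C3 cleavage. The fragments C3a and C5a signal through the receptors C3ar1 and C5ar1. Unlike most components, which the liver supplies to plasma, C1q is made largely by macrophages and dendritic cells, and many tissue macrophages also make C3, C4, factor B and properdin.

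The C1q genes are neighbours on mouse chromosome 4 in the order C1qb, C1qc, C1qa, with no other annotated gene between them. C1qc and C1qb are the chain genes that were well above background on both arrays, and C1qa is named only. The C1qc and C1qb values lay on opposite sides of 0 (1.11 ± 0.20 and -0.34 ± 0.21), so these promoter sequences are shown. Each runs from 250 bases before to 50 bases from a transcript start, as annotated by RefSeq on GRCm38.p6, and is written 5′ to 3′ on the minus strand, from chr4:136892865-136893164 for C1qc and from chr4:136886151-136886450 for C1qb. Capitals mark the core letters of ETS-family factors such as PU.1, AGGAAG or its reverse complement.
C1qc: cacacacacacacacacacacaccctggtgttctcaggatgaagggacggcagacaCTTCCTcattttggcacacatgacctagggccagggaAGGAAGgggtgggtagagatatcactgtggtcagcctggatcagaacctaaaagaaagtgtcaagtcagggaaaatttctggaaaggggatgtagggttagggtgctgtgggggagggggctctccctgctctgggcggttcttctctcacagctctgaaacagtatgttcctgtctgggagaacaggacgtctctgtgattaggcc
C1qb: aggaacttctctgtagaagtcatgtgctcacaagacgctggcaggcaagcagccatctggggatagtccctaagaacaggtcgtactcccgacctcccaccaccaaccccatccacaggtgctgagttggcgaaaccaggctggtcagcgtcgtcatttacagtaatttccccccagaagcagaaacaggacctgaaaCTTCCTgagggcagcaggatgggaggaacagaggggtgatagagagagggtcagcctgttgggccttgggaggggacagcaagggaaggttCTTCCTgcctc
Each held the core 2 times. In C1qc the matches began 194 and 157 bases before the start, and in C1qb 52 bases before and 39 bases after it. The core occurred on either strand in 35.4% of all 32851 promoter sequences of the same table, so its presence in both is a description. The other motifs searched on both strands were TATAAA (13.6% of all promoters), TTGCNNAA for C/EBP factors (10.8%) and, for IRF factors, GAAA followed after any 2 bases by GAAA (3.4%), and none matched in either of these C1q windows. That table held a sequence for 6 of the 9 genes. Of the other 4, C3 held 1 TATAAA and 1 TTGCNNAA match and no ETS core, C5ar1 held 3 ETS cores, 2 of them overlapping, C3ar1 held 1 ETS core and 1 TATAAA, and Cfp held no match to any of the 4 motifs.

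On each array the signal is the brightness of a spot after background subtraction by the scanner software. The normalised value is log2 of that signal minus log2 of the array's 75th percentile, which was 89.2 on the SIRPα-KO-labelled array and 100.2 on the WT array. All differences are SIRPα-KO-labelled minus WT on this log2 scale, so that 1 is a 2-fold difference. The value after ± combines the errors that the scanner software gives for the spots; it covers the reading of spots and says nothing of mice or pools. Each genotype having 1 array, the differences have no replicate check and were not tested, and the words higher and lower in counts mean a difference of at least 2-fold. Of 25734 and 28170 probes well above background on the SIRPα-KO-labelled and the WT array, none was saturated, and both arrays were read in the same scan. Sirpa, the targeted gene, had a signal of 1006 on the SIRPα-KO-labelled array and 795 on the WT array (0.51 ± 0.20), so its probe went against the label. Whether the knockout removes the stretch that it detects is unstated in the sources used here. Of 14 red pulp macrophage markers with a probe, 11 were measured, that is, well above background on 1 array or both, with Adgre1 (10410 and 6830) and Csf1r (6697 and 6601) the brightest, while Mertk, Mrc1 and Itgad were not.

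The complement genes did not move together, and their differences scattered about as much as those of all measured genes (SD 0.59 against 0.61). This SD takes C3 at its brighter probe, with 1 spot per array (-0.96), and C1qa as a bound. The other C3 probe, with 10 spots, stood at 0.08, and an SD with that probe was not computed. Among the 9, C1qc was higher, 2.16-fold, and none was at least 2-fold lower. The background share among all 15827 measured genes was 3.11% for higher, 5.42% for lower and 8.53% for either. Of the 9 genes, 5 lay above 0 and 4 below, from -0.96 for C3 at its brighter probe to 1.11 for C1qc. The median of the 9 was 0.00, with C1qa, a bound, among them, and that of all measured genes was -0.08.

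**Figure D1:**
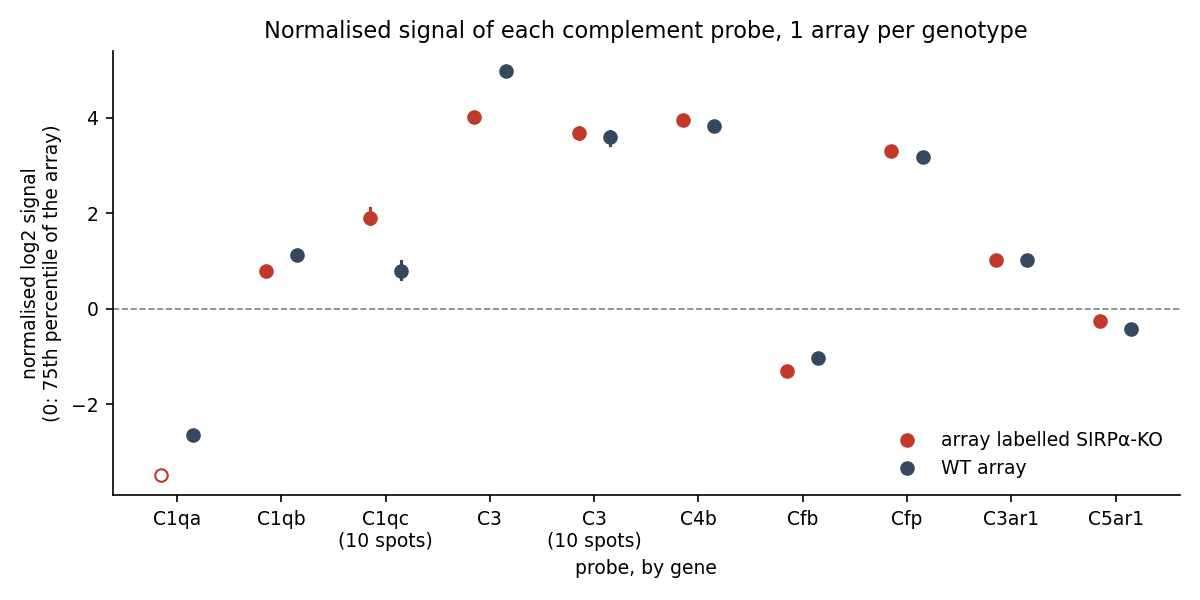
Normalised log2 signal (0 is the 75th percentile of each array) at the 10 probes of the 9 complement genes, with the SIRPα-KO-labelled array in red left of the WT array in dark blue; vertical lines span the 10 repeat spots of C1qc and of the second C3 probe, and the open circle is not well above background. C1qc stood at 1.90 against 0.79 and C3 at its first probe at 4.02 against 4.98. For each of C4b, Cfp, C3ar1 and C5ar1, the values on the SIRPα-KO-labelled and the WT array lay within 0.16 of each other.

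C1qc, which encodes the C chain, was the best measured of the C1q genes, because its probe was printed at 10 positions. The lowest, median and highest spot signals were 305, 328 and 384 on the SIRPα-KO-labelled array, against 154, 174 and 201 on the WT array. The ranges of the arrays shared no value. The normalised means were 1.90 and 0.79, with spot SDs of 0.11 and 0.13 over the 10 spots of each array, and the difference was 1.11 ± 0.20. At matched positions the difference ran from 1.01 to 1.21 with an SD of 0.06, and it was positive at 10 of 10 positions. Spots of 1 array share the same RNA, so this shows only that the reading was repeatable. Of the 270 measured repeat-spot probes, 27.8% likewise had spot ranges that did not overlap (10.7% with the SIRPα-KO-labelled array higher, 17.0% with it lower), while 22 were lower and 6 higher by at least 2-fold. C1qc was the lowest of the 6, and its difference exceeded that of 97.8% of all measured genes.

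**Figure D2:**
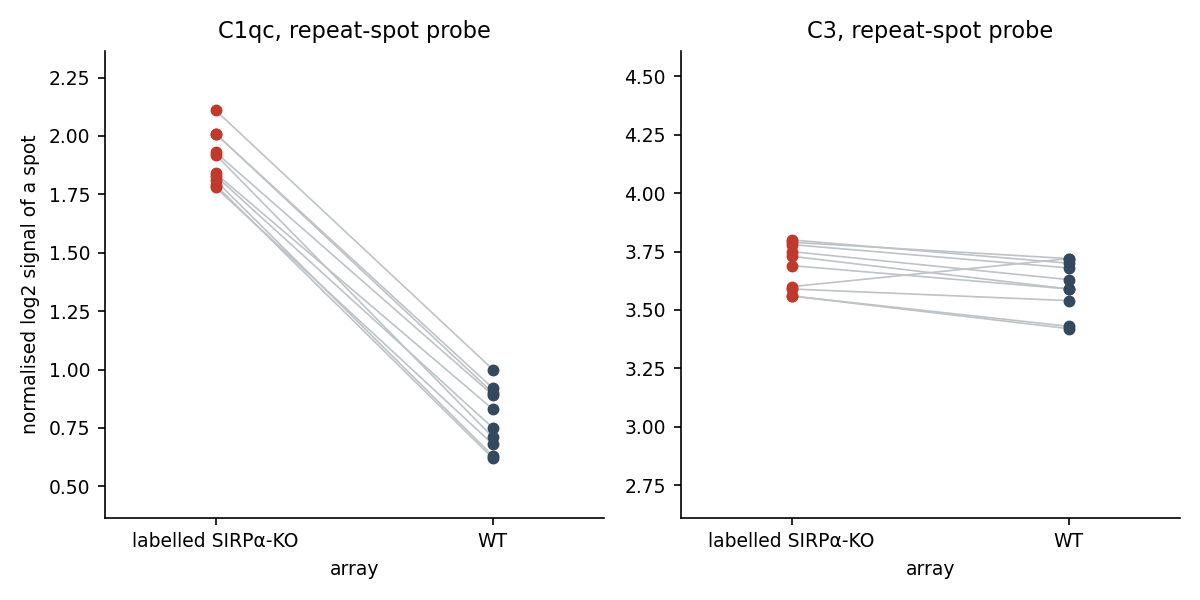
Normalised log2 signal of the 10 spots of C1qc (left panel) and of 10 spots of C3 at its repeat-spot probe (right panel), with the SIRPα-KO-labelled array left and the WT array right; grey lines join spots at the same position, and both panels span the same height. The C1qc spots separated completely, whereas 5 of the 10 C3 spots on the SIRPα-KO-labelled array lay below the highest WT spot.

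C1qb, which encodes the B chain, had 1 spot per array, with a signal of 154 on the SIRPα-KO-labelled array and 219 on the WT array. The normalised values were 0.79 and 1.13, and the difference was -0.34 ± 0.21, short of the 2-fold limit. Repeat-spot probes within 1 log2 unit of these values had a median spot SD of 0.09 on the SIRPα-KO-labelled array (51 probes) and 0.10 on the WT array (40 probes). A value lower than that of C1qb was found for 27.8% of all measured genes.

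C1qa, which encodes the A chain, was dim at its single spot. Its signal was 7.92 on the SIRPα-KO-labelled array, which was not well above background there, and 15.9 on the WT array. The lowest mean signal of a probe well above background on the SIRPα-KO-labelled array was 9.09. Set at that limit, C1qa was at least 1.56-fold lower (-0.64), and the measured values themselves differed by -0.84 ± 0.47. Repeat-spot probes of like signal on the WT array had a median spot SD of 0.21 (119 probes), against 0.10 at the level of C1qb. The C1qa value thus rests on the weakest reading of the 9 genes.

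The chains were then set against each other. C1qc exceeded C1qb by 1.45 ± 0.29 and C1qa by at least 1.75, with an error of 0.51, both as differences between log2 differences. C1qb exceeded C1qa by at least 0.30, and by 0.50 in the measured values without a bound. The error of 0.51 was larger than either. C1qc and C1qb, both well above background on both arrays, thus lay on opposite sides of 0. C1qb did so at -0.34 ± 0.21 from 1 spot per array. After normexp background correction C1qb stood at -0.16, within its error of 0.21. The order of C1qb and C1qa was not resolved. A probe's brightness cannot be set against that of another probe, so the ratio of the chains within a sample is not given by these values. C1qc lay above 0 and C1qb below 0 under each of 12 alternative settings, C1qc at 0.84 to 1.23 and C1qb at -0.51 to -0.16. Both genes had 1 probe, so the settings of probe choice and dim probes could not change either value. The setting of repeat spots could not change C1qb, which had 1 spot per array. Only the settings of scaling, background and the authors' values thus bear on C1qb. C1qa passed the filter on dim probes through the WT array alone, so a value above 0 was not possible for its bound and its side of 0 carries no weight; its values ran from -0.84 to -0.05 over the 11 that gave one. C1qc fell short of the 2-fold limit without scaling (0.94) and after normexp background correction (0.84). The authors' deposited table gave 1.22 for C1qc, -0.28 for C1qb and, without a bound, -0.74 for C1qa. As a bound, C1qa stood at -0.55 in the authors' values, against -0.64 in the main setting.

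**Figure D3:**
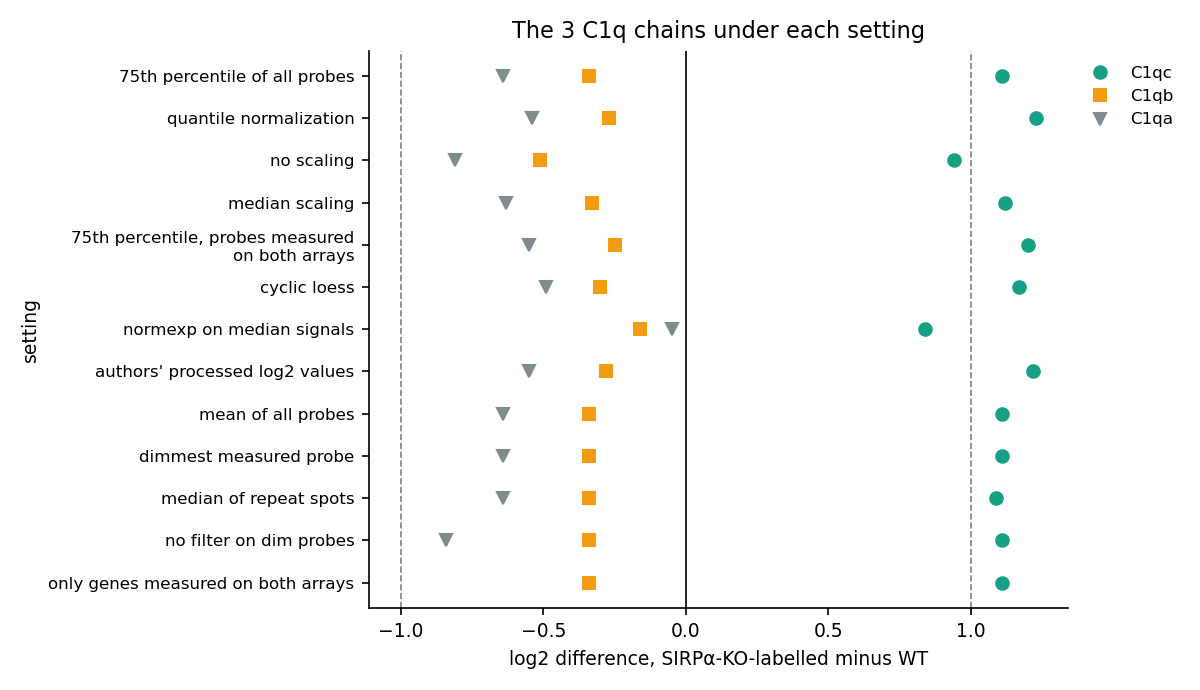
Log2 difference (SIRPα-KO-labelled minus WT, horizontal axis) of C1qc, C1qb and C1qa under each setting, 1 setting per line with the one used in the text on top; dashed lines mark 2-fold. C1qc stood on the right of 0 and C1qb on the left on each line; C1qa, well above background on the WT array alone, has no point where only genes measured on both arrays were kept.

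C3, the component on which the pathways converge, was read by 2 probes that differed. At the probe with 10 spots, the lowest, median and highest signals were 1049, 1164 and 1241 on the SIRPα-KO-labelled array and 1075, 1224 and 1325 on the WT array. These ranges overlapped. The normalised means were 3.68 and 3.60 (spot SDs 0.10 and 0.11), a difference of 0.08 ± 0.20. At the other probe, with 1 spot per array, the signal was 1450 on the SIRPα-KO-labelled array and 3166 on the WT array, a difference of -0.96 ± 0.20 or 1.94-fold lower. The probes parted by 1.04 ± 0.29. Both carry the same accession, and the sources used here do not say which stretch of the transcript each detects. Without scaling the single-spot probe passed the 2-fold limit at -1.13, and the authors' deposited table gave -0.66 for it and 0.33 for the repeat-spot probe.

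C4b, which encodes complement C4, the first component cleaved by activated C1, had signals of 1386 on the SIRPα-KO-labelled array and 1413 on the WT array. After scaling it differed by 0.14 ± 0.20. C4a, its near-identical neighbour, had no probe matched here, and whether the C4b probe also detects it was not tested.

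Of the alternative pathway genes, Cfp, which encodes properdin, the stabiliser of the C3 convertase, had signals of 881 and 899 on the SIRPα-KO-labelled and the WT array, a difference of 0.14 ± 0.20. Cfb, which encodes factor B, the protease subunit of that convertase, had signals of 36.0 and 48.7, a difference of -0.27 ± 0.23. Repeat-spot probes of like signal to Cfb had median spot SDs of 0.15 on the SIRPα-KO-labelled array (100 probes) and 0.13 on the WT array (94 probes). Properdin and factor B were 0.41 ± 0.31 apart, and neither was near the 2-fold limit. Cfp lay within its error of 0, so its side was not resolved. Both genes lay below 0 without scaling (Cfp -0.03, Cfb -0.44) and after normexp (Cfp -0.04, Cfb -0.07).

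The receptors for the anaphylatoxins differed by less than the error. C3ar1, the receptor for C3a, had signals of 181 on the SIRPα-KO-labelled array and 203 on the WT array, which became equal normalised values of 1.02 and a difference of 0.00 ± 0.21. C5ar1, the receptor for C5a, had signals of 73.9 and 74.3, a difference of 0.16 ± 0.21. The sign of these small differences depended on the setting: without scaling C4b stood at -0.03, Cfp at -0.03, C3ar1 at -0.16 and C5ar1 at -0.01, and after normexp Cfp stood at -0.04 and C3ar1 at -0.06. Quantile normalization raised C4b to 0.47 and Cfp to 0.43, and the authors' deposited table gave them 0.42 and 0.37.

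**Figure D4:**
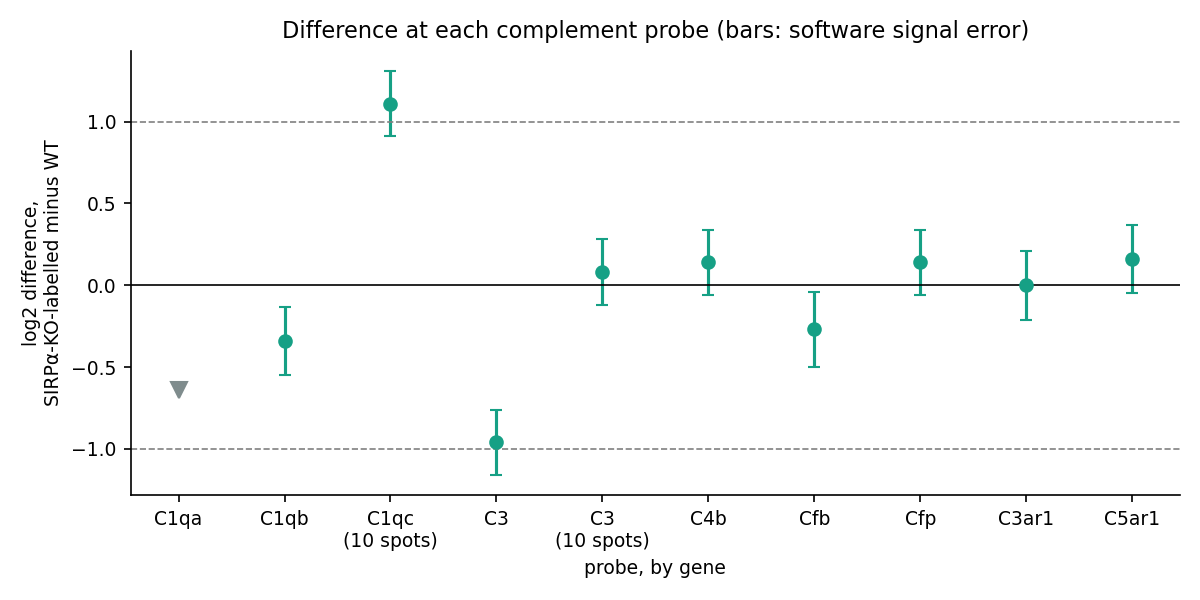
Log2 difference (SIRPα-KO-labelled minus WT) at each of the 10 probes, with bars for the software's signal error; the grey triangle marks the bound for C1qa and dashed lines mark 2-fold. C1qc stood above the upper line at 1.11, the single-spot probe of C3 just inside the lower line at -0.96, and the others between -0.64 and 0.16.

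Over the 36 pairs of genes, the log2 differences parted by more than 2 times their joint error in 14 pairs. Of these, 8 held C1qc and the other 6 held C3 at its single-spot probe. With C3 read at its repeat-spot probe, 8 pairs did so, and all 8 held C1qc. C1qc thus exceeded C4b by 0.97 ± 0.29, Cfp by 0.97 ± 0.29 and Cfb by 1.38 ± 0.31. Its excess was 1.11 ± 0.29 over C3ar1, 0.95 ± 0.29 over C5ar1 and 1.03 ± 0.29 over C3 at the repeat-spot probe. The joint error covers the reading of spots only, and the share of such pairs among all measured genes was not computed. With C3 at its single-spot probe, differences had an SD of 0.59 across the 9 genes, against 0.61 across all measured genes. The pair counts are thus a description.

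A wider list of 46 complement genes outside these 9 was read by the same rule, and 45 had a probe and 36 were measured. Of the 36, 1 was at least 2-fold higher and 2 were at least 2-fold lower, or 2.78% and 5.56%, close to the 3.11% and 5.42% of all measured genes. Their median was 0.05, against -0.08 for all measured genes. All 3 were receptors or proteins once tied to C1q binding. Cd93, a surface protein of myeloid and endothelial cells first described as a C1q receptor, had signals of 149 on the SIRPα-KO-labelled array and 64.8 on the WT array, a difference of 1.37 ± 0.21. Vsig4, the macrophage receptor for C3b and iC3b also called CRIg, had signals of 3535 and 9958, a difference of -1.32 ± 0.20. Cr2, complement receptor type 2 of B cells and follicular dendritic cells, had signals of 327 and 1547 at its brighter probe (-2.07 ± 0.20) but 220 and 199 at the other (0.31 ± 0.21). After normexp, Cd93 stood at 0.81, short of the limit. Vsig4 ranged from -1.49 to -1.03 over 12 alternatives. With the mean of all probes or the dimmest probe, Cr2 was no longer at least 2-fold lower.

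Markers of cells that could carry such transcripts are given beside these genes, and their part in the differences was not tested. The sort for F4/80+ and CD11b-low cells, the proteins encoded by Adgre1 and Itgam, is meant to leave out B, T, NK, plasma and endothelial cells and CD11b-high myeloid cells. Sums of signal over a list follow its brightest probes, so the probe that makes up most of a sum is named where 1 does. The B cell list (5 of 5 measured) summed to 5.27 times the 75th percentile on the SIRPα-KO-labelled array and 4.96 on the WT array, and the list of follicular dendritic and stromal cells (6 of 7 measured, Pdgfrb not above background) to 23.0 and 32.5, mostly Pdpn. The endothelial list (3 of 4 measured, Cdh5 not above background, Emcn at least 2-fold lower) summed to 4.97 and 6.99, mostly Pecam1. The red pulp macrophage list summed to 204 and 144, mostly Adgre1 and Csf1r, and its median difference was 0.00. That median is the value of Axl, a bound set at 0, not well above background on the SIRPα-KO-labelled array. The measured Axl values differed by -0.58 ± 0.56. Adgre1 differed by 0.78 ± 0.20 at its brighter probe and by -0.47 ± 0.20 at the other (474 and 737). Fcgr1 (1.23 ± 0.20) and Cd5l (1.46 ± 0.22) were at least 2-fold higher, while Cd163 stood at -0.57 ± 0.24 and Hmox1 at -0.32 ± 0.20. Conventional dendritic cell markers, another source of C1q, summed to 6.81 and 13.2, mostly Flt3. Of these 1 of 5 was at least 2-fold lower, Flt3 (-1.07 ± 0.20, and -2.25 ± 0.21 at its other probe). The rest of this list was split, with Itgax at 0.85 ± 0.34, Xcr1 at 0.41 ± 0.36, Zbtb46 at -0.17 ± 0.21 and Clec9a, a bound, at -0.29. The T cell list (5 of 5 measured) summed to 69.3 and 83.8, mostly Cd4 at its brighter probe (4864 and 6166). The other Cd4 probe, with 10 spots, had signals of 26.2 and 39.6. The NK cell list (3 of 3) summed to 5.43 and 6.29, mostly Prf1. The neutrophil list (3 of 4 with a probe, Mpo not above background) summed to 441 and 457, nearly all of it Elane (39300 and 45720), while S100a8 (32.7 and 86.2) was at least 2-fold lower and S100a9 had signals of 4.10 and 10.8, the SIRPα-KO-labelled one not well above background. Of the plasma cell markers (4 of 4 measured), Jchain and Derl3 were at least 2-fold lower. That list summed to 2.30 on the SIRPα-KO-labelled array and 14.2 on the WT array, mostly Jchain. Platelet markers (4 of 4) summed to 141 and 123, mostly Pf4. They were split, with Gp1ba at 1.44 ± 0.24, Ppbp at 0.41 ± 0.21, Pf4 at 0.19 ± 0.20 and Itga2b at -0.48 ± 0.38. Markers of marginal zone and metallophilic macrophages (2 of 3) summed to 29.5 and 19.0, mostly Marco. These markers other than Adgre1 and Csf1r are named after their values were seen.

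**Figure D5:**
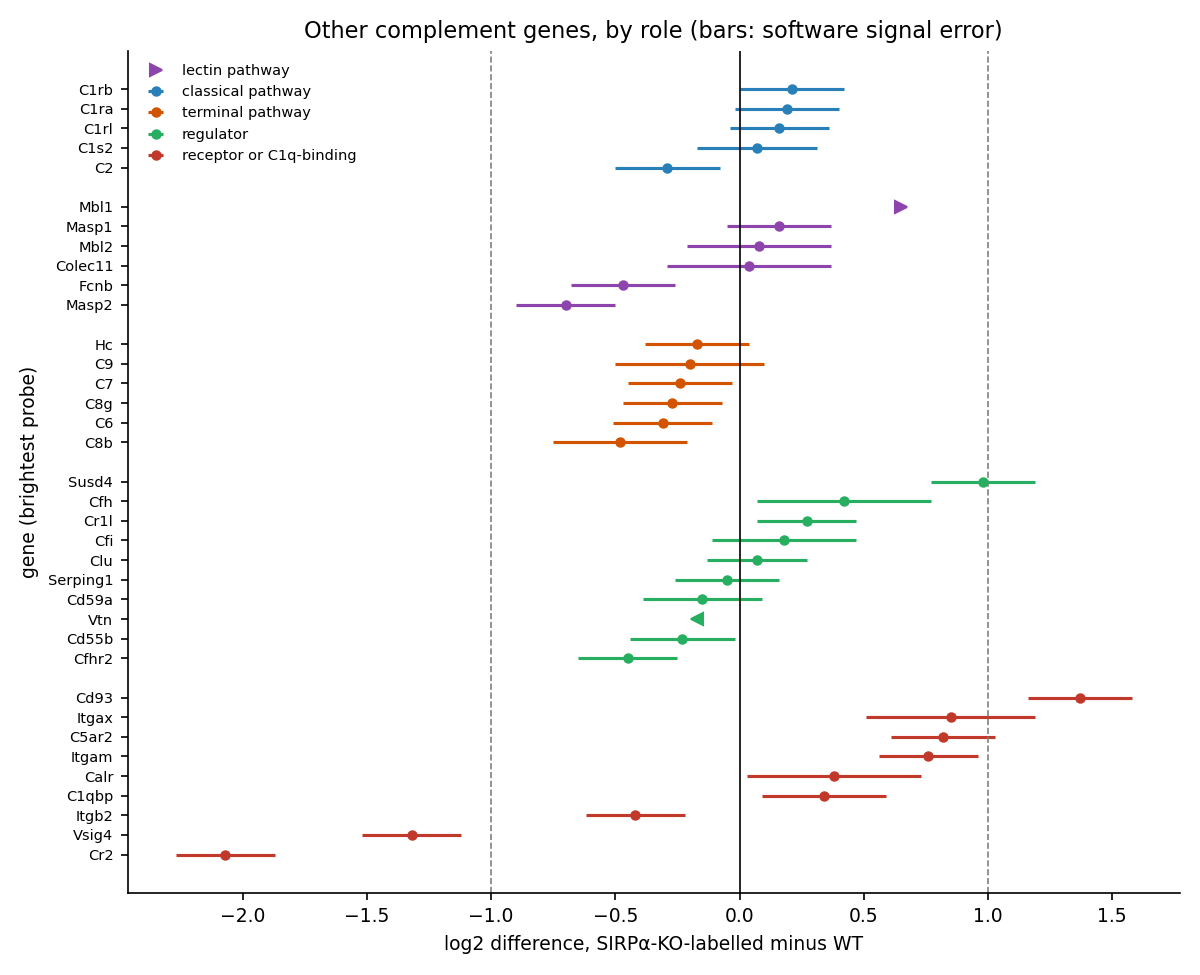
Log2 difference (SIRPα-KO-labelled minus WT, horizontal axis) at the brightest probe of 36 measured complement genes outside the 9, grouped by role; bars are the software's signal error, arrowheads are bounds and dashed lines mark 2-fold. Cd93 lay beyond the upper line, Vsig4 and Cr2 beyond the lower one, and the 6 genes of the terminal pathway lay between -0.48 and -0.17.

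The other groups are named here after their values were seen. In the classical pathway, the C1 proteases C1ra (0.19 ± 0.21), C1rb (0.21 ± 0.21) and C1s2 (0.07 ± 0.24), the related C1rl (0.16 ± 0.20) and C2 (-0.29 ± 0.21), the protease subunit of the classical C3 convertase, were measured, and none was at least 2-fold apart. C1ra and C1rb, like C1s1 and C1s2, are closely similar genes whose probes may not separate them. The 6 measured genes of the terminal pathway, which builds the membrane attack complex, all lay below 0, as did 8999 of the 15827 measured genes, with a median of -0.25 against -0.08, from -0.17 for Hc, which encodes C5, to -0.48 for C8b. In quantile-normalised values and after normexp 5 of the 6 lay below 0. In the lectin pathway, 6 of 7 genes were measured, with values from -0.70 for the protease gene Masp2 to at least 0.65 for Mbl1.

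Among 10 measured regulators none was at least 2-fold apart. Of these, Susd4, an inhibitor of the C3 convertase, differed by 0.98 ± 0.21, just under the limit, and Cfhr2, a factor H-related gene with close relatives that its probe may not separate, by -0.45 ± 0.20 (signals of 2714 and 4169). Cr1l, the mouse convertase regulator Crry, had signals of 775 on the SIRPα-KO-labelled array and 722 on the WT array (0.27 ± 0.20). Among receptors, Itgam and Itgb2, which encode CD11b and CD18, the chains of complement receptor 3, stood at 0.76 ± 0.20 and -0.42 ± 0.20, although other Itgam probes gave -0.01 and 0.13. Itgax, the α chain of complement receptor 4, stood at 0.85 ± 0.34. C5ar2, the second receptor for C5a, stood at 0.82 ± 0.21 and at 0.51 ± 0.26 at its other probe, against 0.16 ± 0.21 for C5ar1. C8g, which encodes the C8 γ chain and was among the brightest of the list, had signals of 4185 and 5660 (-0.27 ± 0.20).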

How the data were processed

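Per the labels, each sample held cells of 5 mice, total RNA was depleted of globin transcripts and Cy3-labelled cRNA was hybridised to 1-colour arrays. The deposited scanner files give spot intensity made with Agilent Feature Extraction 11.0.1.1 on mouse design 26655, per the file headers, already background-subtracted and detrended; the headers name build mm9. The authors' deposited table holds log2 values for 39485 probes with a median of 4.56 on each array. Their scale and direction follow the scanner values, with normalization steps not given in the sources used here. After sorting, 76.86% of the values lay within 0.01 between the arrays, so the distributions were closely matched, as quantile normalization does. These values come from the same arrays and are no independent check.

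From the processed signal, control spots and spots flagged as outliers were left out (167 and 190 of 43020 on the SIRPα-KO-labelled and the WT array), log2 values were scaled to each array's 75th percentile, and the spots of a probe were averaged. Accessions, without versions, were matched to RefSeq symbols of GRCm38.p6 for 27206 of 39386 probes. Each gene was read at its brightest probe and called measured if most spots of that probe were well above background on 1 array or both. On an array where a probe was dim, the lowest value well above background took its place unless its own was higher. A bounded difference that would have crossed 0 was set to 0. The error of a probe with several spots is the mean of its spots' errors. With 1 array per genotype, no test was made, and precision is limited by that number.

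Named were all 9 members at each probe, genes of the wider list at least 2-fold apart, its 5 brightest, Sirpa, and the 2 brightest macrophage markers; names outside this rule were chosen after their values were seen. Members and lists were chosen with earlier results of these data known. The gene step was tested on simulated data. R 4.3.3 with limma 3.58.1 and Python 3.11.15 were used. Alternatives covered scaling, background, the authors' values, probe choice, repeat spots, dim probes and the fold limit. Marker lists of monocytes and erythroid cells are not reported here.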

Additional observations from a re-analysis of the deposited data

How the results depend on the processing

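Planned normexp on mean signals was not run because the scanner tables used here hold median signals; normexp on median signals with an offset of 50 was chosen after seeing the data. C1qc minus C1qb was 1.43 or more under 11 of 12 alternatives and 1.00 after normexp. Scaling by 1 factor per array cancels in this difference, and both genes had 1 probe. The settings of such scaling, of probe choice and of dim probes therefore gave 1.45 by construction. C1qc minus C1qa ranged from 0.89, also after normexp, to 1.95 over 11. C1qb minus C1qa, at least 0.30 with an error of 0.51, turned to -0.10 after normexp. C1qa has no value where genes had to be measured on both arrays. The 1 complement gene at least 2-fold higher became 0 without scaling, after normexp and at 3-fold; the 0 lower became 1 without scaling (C3) and 2 at 1.5-fold (C1qa and C3). In the wider list, the 1 gene higher became 2 with the percentile over probes measured on both arrays or cyclic loess, 6 at 1.5-fold, and 0 after normexp or at 3-fold; the 2 genes lower became 1 with the mean of all probes, the dimmest probe or 3-fold, and 3 with dim genes kept (Fcna added) or at 1.5-fold (Masp2 added). Of all genes, 492 were higher and 858 lower. At 1.5-fold these counts were 1806 and 2086, at 3-fold 103 and 370, and when dim genes were kept 877 and 1642. The higher count was 304 on unscaled values and 102 after normexp. Fold limits and the filter change counts by construction; for the rest the cause was not tested. The share of higher among all genes at least 2-fold apart, 36.4%, was 47.1% in the authors' deposited values, 48.4% after quantile normalization, 46.5% after cyclic loess, 46.0% with the percentile over probes measured on both arrays, 15.0% after normexp and 20.8% on unscaled values, and the median of all genes was -0.25 without scaling against -0.08. No paired analysis was possible because each genotype had 1 array. C1qa is limited by its signal: it stood below the lowest signal well above background on the SIRPα-KO-labelled array.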
